A study of Homo sapiens with 12 samples.

Results

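The genes described here are 42 genes of DNA replication and of the passage from G1 into S phase. They were chosen by symbol from a fixed list, with earlier results of these data known, and found on 42 of the 26535 rows of the deposited count table. RNA-seq libraries were made from A549 and H1299, cell lines long established from human lung cancers of the non-small-cell type, each carrying either a lentivirus for overexpression of VGF or its empty vector. The VGF protein is a precursor of neuropeptides that neurons and endocrine cells secrete. Each of the 4 groups (A549 with empty vector, A549 with VGF, H1299 with empty vector, H1299 with VGF) held 3 libraries, described by the submitters as biologically independent. All groups had received a lentiviral vector, and no untreated cells were among the samples. A549 was grown in DMEM/F12 and H1299 in RPMI-1640, both with serum and antibiotics, so line and medium cannot be told apart. Whether a group came from a pool or from a single clone of infected cells is not given in the sources used here.

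Before a chromosome can be copied, the origin recognition complex, CDC6 and CDT1 load the ring-shaped helicase built from MCM2 to MCM7 onto DNA, a step called licensing. CDC45 and the GINS complex turn the loaded ring into an active helicase, primase and polymerase alpha lay down primers, and polymerases delta and epsilon extend them while held by the sliding clamp PCNA, which the RFC clamp loader places on DNA. Cyclin E with its kinase opens S phase, and E2F factors raise the transcription of most of these genes as cells leave G1, which is why their messenger RNAs are widely read as a proliferation signature in tumours.

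Short stretches of promoter are shown first because a common control by E2F is what this gene group is best known for. RefSeq promoter windows (GRCh38.p14, 250 bases before to 50 bases after a start site) were found for 37 members, which had 47 windows. The E2F words searched were TTTCCCGC, TTTGGCGC, TTTCGCGC and TTTGCCGC on both strands. They were present in 22 of the 47 windows (46.8%), against 766 of 16814 windows of tested genes (4.56%) and 1164 of 35116 windows in the whole table (3.315%). The stretches below are 60 bases each, written 5′ to 3′ on the strand of the gene, all upstream of every start site that the table gives for the gene. Capitals mark a match to 1 of the 4 words or to its reverse complement.
MCM6, chr2:135876562-135876621, minus strand: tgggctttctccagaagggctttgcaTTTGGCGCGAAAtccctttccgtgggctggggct
MCM6, chr2:135876500-135876559, minus strand: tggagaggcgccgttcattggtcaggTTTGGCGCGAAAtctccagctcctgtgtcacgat
PCNA, chr20:5126648-5126707, minus strand: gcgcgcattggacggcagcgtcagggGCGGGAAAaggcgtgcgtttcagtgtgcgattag
CDC25A, chr3:48188428-48188487, minus strand: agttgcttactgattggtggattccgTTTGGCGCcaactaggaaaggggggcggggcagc
E2F1, chr20:33686405-33686464, minus strand: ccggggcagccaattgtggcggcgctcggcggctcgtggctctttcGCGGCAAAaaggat
POLA1, chrX:24693755-24693814, plus strand: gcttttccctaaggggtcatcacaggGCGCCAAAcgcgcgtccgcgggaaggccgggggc

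The MCM6 window held 4 matches, in which TTTGGCGC overlaps GCGCGAAA in both stretches printed. Counted from the start site, these matches began at positions -152, -148, -90 and -86. The PCNA match began at position -59, that of CDC25A at -44, that of POLA1 at -137 and the one printed for E2F1 at -33, with a further match at -20. By gene, 21 of the 37 members with a window had at least 1 match (56.8%), against 718 of 11494 tested genes (6.25%). PRIM1, RRM2, CDC45, CHAF1A and ORC6, whose values are given below, were among the 16 members without a match to these words in the window. The CCAAT word was present in 29 of the 47 windows (61.7%), against 34.4% of windows of tested genes, and TTTGAA, part of the element of late cell-cycle genes called CHR, in 1 window (2.13%), against 1824 of 16814 windows (10.85%). A match to a word is a description of the sequence and does not show binding.

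Libraries held 31378171 to 41919484 counts, of which the 42 members took 0.292 to 0.432%. VGF was 527-fold higher with the VGF vector in A549 and 11.5-fold higher in H1299. Its control levels differed between the lines, at 2.02 to 2.74 CPM in A549 and 77.2 to 90.5 CPM in H1299. With the VGF vector it stood at 1201 to 1361 CPM in A549 and 886 to 1114 CPM in H1299. A549 VGF library 2 stood apart by transcripts of endothelial genes: the 13 markers summed to 430.5 CPM there, against 71.5 to 82.0 CPM in the A549 control libraries, where TEK, EMCN, ERG and PLVAP were at 0. Of the 2532 to 2961 marker counts in those controls, ESAM gave 928 to 1071 and EGFL7 1479 to 1861. CDH5 had 3387 counts in A549 VGF library 2 and 0 to 21 in the A549 controls, and PECAM1 had 3305 and 19 to 61. H1299 control library 3 stood apart in the members themselves. It was the lowest of its group for 35 of 42 members, whose median deviation from the group mean was -0.13 on the log2 scale, against -0.01 over 11733 features at a mean of at least 5 CPM. The summed level of the members was 3324 CPM in that library and 3817 and 3859 CPM in the other H1299 controls. Of the markers that set the lines apart, CDH1 had 0 counts in all H1299 libraries, and CDKN2A, CDKN2B and MTAP, known to be deleted in A549, summed to 8.73 to 14.4 CPM in A549 and 378 to 420 CPM in H1299.

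**Figure D1:**
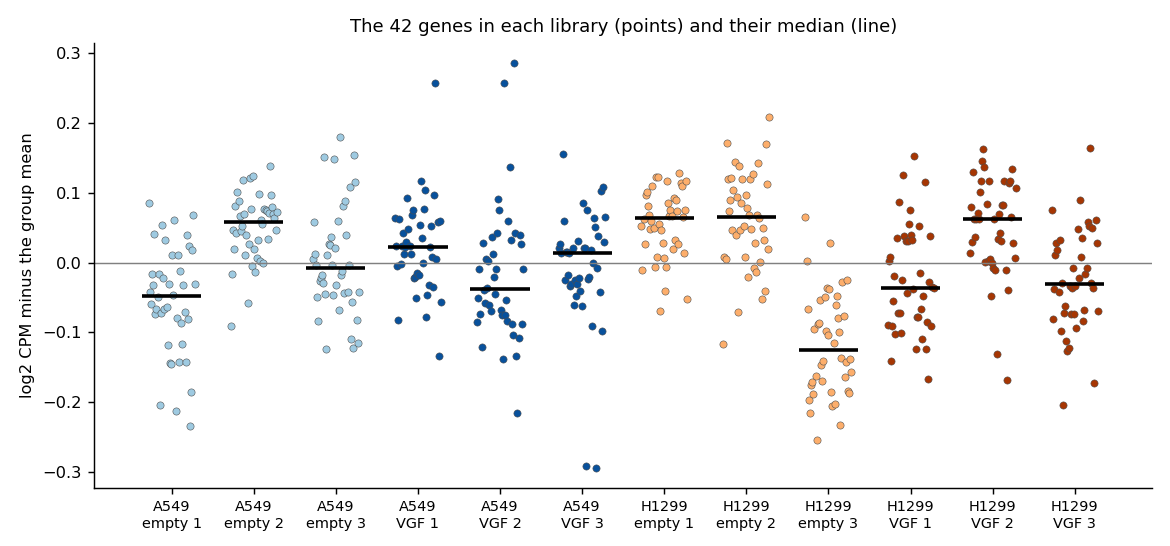
Log2 CPM of each of the 42 genes minus the mean of its group, by library, with the median as a black line. H1299 control library 3 has the lowest median (-0.13), and the medians of the other 11 libraries lie between -0.05 and 0.07.

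Levels between genes were compared as FPKM, the deposited values scaled by length and library size. In A549 with empty vector the order of means opened with PCNA (183 ± 7.03 FPKM, SD, n = 3), TK1 (96.8 ± 4.60), which recycles thymidine, and MCM7 (93.7 ± 2.34). TK1 and MCM7 overlapped between libraries, and PCNA was above both in each library. RRM2, TYMS, RRM1, MCM3 and MCM4 followed between 42.1 and 50.3 FPKM, and each overlapped with its neighbour in the order. The order closed with E2F8 (5.17 ± 0.691), CDC25A (3.36 ± 0.270), E2F2 (2.67 ± 0.196) and CCNE2 (1.97 ± 0.183), none of which overlapped with its neighbour. In H1299 with empty vector MCM7 led with 237 ± 20.8 FPKM, above TYMS (91.7 ± 5.17), PCNA (85.8 ± 6.73) and MCM4 (81.6 ± 7.79), which overlapped. E2F2 was last there (3.13 ± 0.268).

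Subunits of a complex were not at equal levels. Among the 6 subunits of the licensing helicase, the highest mean was 3.63 times the lowest in A549 with empty vector (MCM7 over MCM5) and 7.44 times in H1299 (MCM7 at 237 over MCM5 at 31.8 FPKM). MCM7 shares 8.94% of its exonic bases with AP4M1 on the opposite strand, and whether counting used strand is not given in the sources used here. The GINS subunits lay closer, with ratios of 1.89 and 1.81, and the lowest was GINS4 in A549 and GINS3 in H1299. The 4 clamp loader subunits RFC2 to RFC5 spanned 15.2 to 22.6 FPKM in A549 and 21.0 to 46.7 in H1299. PRIM1, the catalytic subunit of primase, was 1.57 times POLA1, the catalytic subunit of polymerase alpha with which it works, in A549, and 3.54 times in H1299. CCNE1 was 3.99 times CCNE2 in A549, while in H1299 the cyclins E overlapped (4.71 ± 0.409 and 4.51 ± 0.596 FPKM). With VGF the ratio of PRIM1 to POLA1 was 1.74 in A549 and 4.44 in H1299, and that of the helicase subunits was 3.66 and 7.61.

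**Figure D2:**
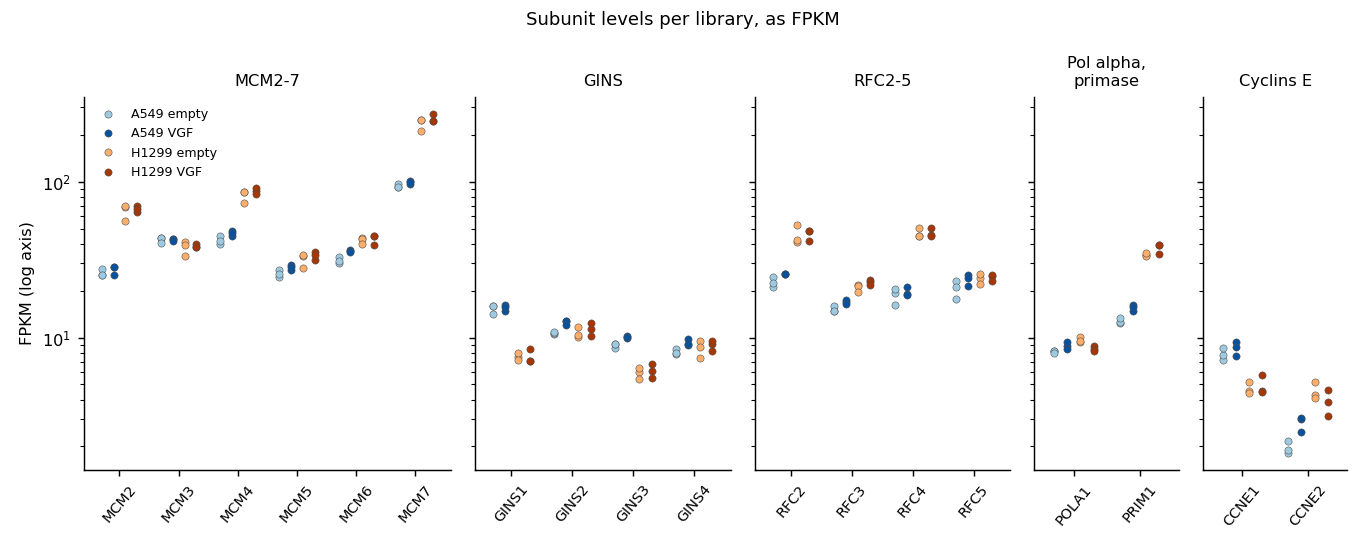
FPKM of subunits in each library on a log axis, for the licensing helicase, GINS, the clamp loader, polymerase alpha with primase, and the cyclins E. MCM7 lies above the other helicase subunits in all 4 groups, and in H1299 control libraries it reaches a mean of 237 FPKM.

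With VGF in A549, PRIM1 rose and no other member passed the test, although 40 of the 42 members had a positive log2 fold change. PRIM1 (ENSG00000198056, GRCh38 chromosome 12, 56731596 to 56752373, minus strand) stood at 19.6, 20.1 and 21.1 CPM in the control libraries and 25.8, 23.7 and 25.3 CPM with VGF. The lowest VGF library lay above the highest control library. The log2 fold change was 0.30 (SE 0.0616), a 1.23-fold difference, with an adjusted p of 0.0488 from edgeR's quasi-likelihood test with Benjamini-Hochberg adjustment over 18228 features. This is 1 called member of 42, where 0.406% of all tested features were called higher, and 0 members were called lower. In bulk libraries, more cells in S phase and more RNA per cell cannot be told apart.

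The PRIM1 call was not stable. It was lost when any library but H1299 VGF library 3 was left out (adjusted p 0.0681 to 0.179, highest without A549 control library 1), and also without the filter (0.0573), with limma voom (0.0859), on FPKM (0.0547 and 0.0688) and in A549 fitted alone (0.119). DESeq2 kept it (0.00782) and called MCM6, RRM2 and TYMS as well. More of all features were called with DESeq2 too, 2.67% of 26535, against 0.79% of 18228 with edgeR. Of the exonic bases of PRIM1, 16.2% are shared with AC117378.1 or NACA on the same strand and 5.42% with HSD17B6 on the other, so how the reads there were divided is uncertain.

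The median log2 fold change of the members in A549 was 0.15, against 0 over all 18228 features, of which 8978 were positive. At an unadjusted p under 0.05, 15 members were higher and 0 lower, where 8.1% of all features were higher. All VGF libraries lay above all control libraries for 23 members, against 9.28% of features, and below for 0. On FPKM it was 23 members above and 1 below, CDC6. There ORC6 and MCM5 overlapped, while MCM10 and CCNE2 did not. The share over all features was taken on counts only, so these FPKM counts have no background beside them. Without A549 VGF library 2, 40 members were positive and the median was 0.14. A549 control library 1 was the lowest of its group for 25 of the 42 members. Without it 39 members were positive and the median was 0.12. At an unadjusted p under 0.05 (edgeR) 11 members then differed, where 2046 of 18774 features did. The members were picked as 1 gene group whose transcripts vary together with the cell cycle, so these counts are not 42 independent observations. They were also picked with earlier results of these data known, so the shares are a description only.

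**Figure D3:**
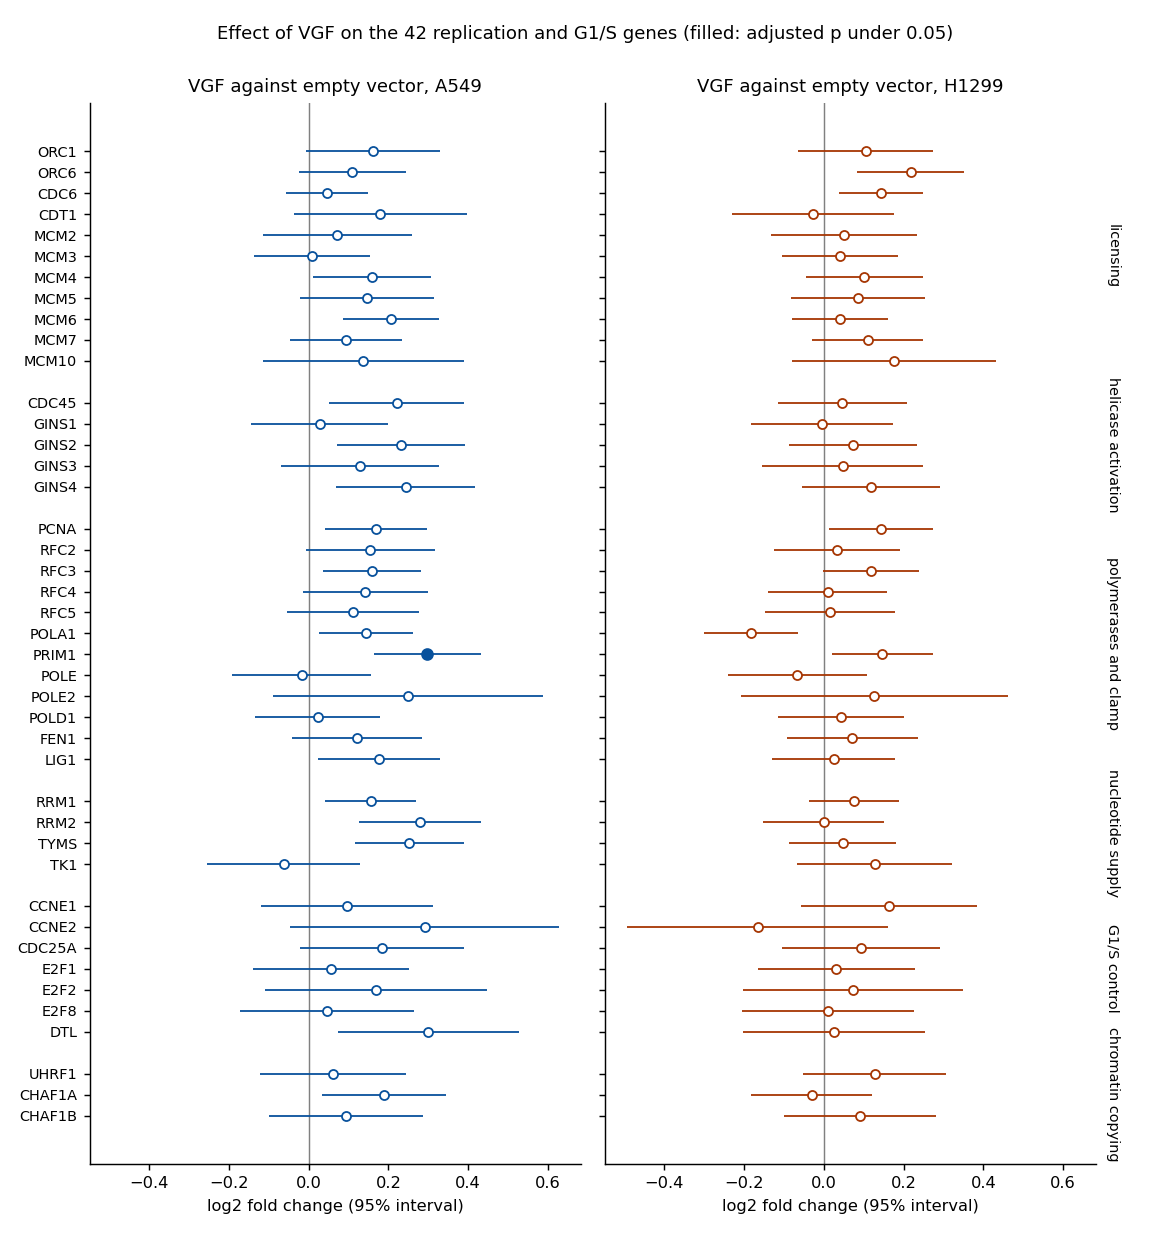
Log2 fold change of VGF against empty vector with its 95% interval, for the 42 genes by role, in A549 (left) and H1299 (right); filled points have an adjusted p under 0.05. In A549, 40 points are above 0 and PRIM1 alone is filled, while in H1299 35 points are above 0 and none is filled.

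Among the 11 genes placed under licensing the A549 log2 fold changes ran from 0.01 (MCM3) to 0.21 (MCM6), with a median of 0.14. MCM10 was placed with them although it is not part of the ring of MCM2 to MCM7, and the median is its value. MCM6, a helicase subunit, had 129, 139 and 131 CPM in the controls and 155, 154 and 152 CPM with VGF, without overlap (log2 fold change 0.21, SE 0.0556, adjusted p = 0.118, edgeR). Its MCM partners MCM4, MCM5 and MCM7 likewise had no overlap, with all VGF libraries higher, at 0.16, 0.15 and 0.09, while MCM2 and MCM3 overlapped. CDC6, a loader of the helicase, and MCM3 were the members whose sign depended on the deposited unit. For CDC6 the mean CPM was 107 ± 3.98 and 111 ± 0.913 (SD, n = 3), and the mean FPKM 29.4 ± 2.69 and 25.4 ± 1.43. Its log2 fold change was 0.05 on counts and -0.20 on FPKM with a pseudocount of 1, and neither passed the test (adjusted p = 0.766 from edgeR and 0.293 from limma).

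The 5 genes of helicase activation had a median of 0.22. GINS2 had 31.8, 32.6 and 32.6 CPM in the controls and 38.6, 38.9 and 36.4 CPM with VGF (log2 fold change 0.23, SE 0.0740, adjusted p = 0.178, edgeR). GINS4 (0.24) and CDC45 (0.22) likewise had no overlap between the groups. GINS1, of the same complex, was at 0.03, with a 95% interval of -0.14 to 0.20. Of the exonic bases of GINS4, 23.6% are shared with transcripts on the opposite strand.

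Polymerase and clamp genes other than PRIM1 reached at most 0.25 (POLE2, the second subunit of polymerase epsilon, whose libraries overlapped). PCNA had 267, 284 and 286 CPM in the controls and 330.1, 303 and 307 CPM with VGF, which differed by 0.17 on the log2 scale (SE 0.0592, adjusted p = 0.217, edgeR). The clamp loader subunits lay between 0.11 (RFC5) and 0.16 (RFC3) on counts; on FPKM with a pseudocount of 1 RFC5 was the highest (0.19) and RFC4 the lowest (0.07, against 0.14 on counts). POLE2 was at 0.17 on that scale. LIG1, which seals Okazaki fragments, was at 0.18, FEN1, which trims their flaps, at 0.12, and POLD1 at 0.02. POLE, the catalytic subunit of polymerase epsilon, was at -0.02 (interval -0.19 to 0.16).

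Nucleotide supply split into 3 genes with positive values and TK1 at -0.06 (interval -0.26 to 0.13). TYMS, which makes thymidylate and is the target of fluoropyrimidine drugs, had 82.6, 94.4 and 92.0 CPM in the controls and 104, 109 and 107 CPM with VGF. Its log2 fold change was 0.25 (SE 0.0628, adjusted p = 0.0914, edgeR). RRM2, the S-phase subunit of ribonucleotide reductase, had 180.2, 191 and 203 CPM in the controls and 225, 255 and 218 CPM with VGF (0.28, SE 0.0702, adjusted p = 0.0954). Neither gene overlapped between groups, and RRM1, the partner of RRM2, was at 0.16 without overlap. TYMS shares 46.6% of its exonic bases with ENOSF1 and TYMSOS on the opposite strand, and RRM2 20.2% with AC007240.1 on its own strand.

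**Figure D4:**
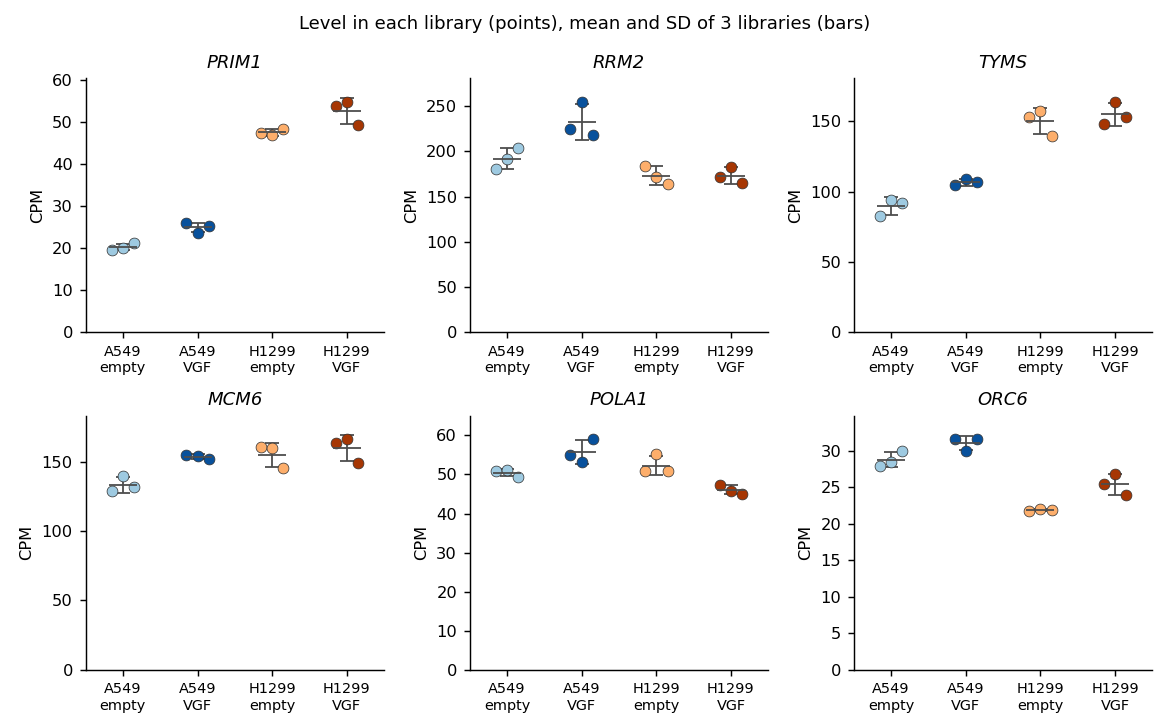
CPM of 6 genes in each library (points), with the mean and SD of 3 libraries. In A549 all VGF libraries lie above all controls for the 6 genes, and in H1299 POLA1 is lower with VGF (45.0 to 47.3 CPM) than in the controls (50.8 to 55.1 CPM) while ORC6 is higher.

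Of the G1/S control genes in A549, DTL, part of a ubiquitin ligase that removes CDT1 in S phase, had 43.5, 51.9 and 53.6 CPM in the controls and 63.6, 62.7 and 57.1 CPM with VGF (log2 fold change 0.30, SE 0.105, adjusted p = 0.217, edgeR). Its groups did not overlap, and its fold change was the highest point estimate of the 42, with a wide interval of 0.07 to 0.53. CCNE2 was at 0.29, with overlap, and CCNE1 at 0.10. On FPKM CCNE2 was at 0.37 and 0.51 (pseudocounts 1 and 0.1), with 1.82 to 2.17 FPKM in the controls and 2.47 to 3.05 FPKM with VGF, without overlap. The factors E2F1, E2F2 and E2F8 were at 0.06, 0.17 and 0.05, and all 3 intervals included 0. CHAF1A, the large subunit of the chromatin assembly factor that places histones behind the fork, had 50.7, 50.0 and 44.7 CPM in the controls and 57.5, 52.0 and 56.4 CPM with VGF, without overlap (0.19, SE 0.0716, adjusted p = 0.264). CHAF1B, its partner, was at 0.09 and UHRF1, which guides maintenance of DNA methylation, at 0.06.

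In H1299, VGF changed no member past the test. Of the 42, 0 were called, where 0.011% of all features were called in either direction, and the smallest adjusted p was 0.393 (ORC6). DESeq2 and limma voom called 0 members as well, where they called 0.482% and 0.00549% of all features. At an unadjusted p under 0.05, ORC6, CDC6, PCNA and PRIM1 were higher (4 members, background 3.13%) and POLA1 lower (1 member, background 4.67%). The largest upper bound of a 95% interval was 0.46 (POLE2) and the lowest lower bound -0.49 (CCNE2), which is the range of change these libraries leave.

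ORC6, a subunit of the origin recognition complex, had 21.7, 22.0 and 21.9 CPM in the H1299 controls and 25.4, 26.8 and 24.0 CPM with VGF. The controls were close together and the groups did not overlap, at a log2 fold change of 0.22 (SE 0.0622). POLA1 (ENSG00000101868, GRCh38 chromosome X, 24693919 to 24996986, plus strand) went the other way, with 50.8, 55.1 and 50.9 CPM in the controls and 47.3, 45.8 and 45.0 CPM with VGF. Each VGF library was below each control library, and the difference was -0.18 on the log2 scale (SE 0.0541, adjusted p = 0.418, edgeR). CCNE1 had 8.38, 8.33 and 7.25 CPM in the controls and 8.65, 8.88 and 9.31 CPM with VGF (0.16, SE 0.101, adjusted p = 0.772), without overlap. On FPKM the CCNE1 groups overlapped and the value was 0.04.

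The members with the smallest p in the remaining roles overlapped between the H1299 groups. GINS4 had 32.7, 31.0 and 26.7 CPM in the controls and 33.6, 34.7 and 30.0 CPM with VGF (log2 fold change 0.12, SE 0.0799). RRM1 had 125, 126 and 119 CPM in the controls and 135, 133 and 123 CPM with VGF (0.08, SE 0.0523). UHRF1 had 126, 129 and 105 CPM in the controls and 123, 134 and 137 CPM with VGF (0.13, SE 0.0827). In each of these genes H1299 control library 3 was the lowest of the 6 libraries.

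Over all members, 35 of 42 had a positive value in H1299, with a median of 0.06, against -0.01 over all features, of which 8275 of 18228 were positive. VGF libraries were all above the controls for 6 members (background 5.65%) and all below for 2, POLA1 and CCNE2 (background 7.07%). On FPKM, where no share over all features was taken, ORC6, PCNA and RFC3 were above (3 members) and POLA1 below (1 member). CDC6, PRIM1, CCNE1 and CCNE2 overlapped there. This lean depended on H1299 control library 3, the library with low members: without it 21 of 42 members were positive and the median was 0.00137. Without it ORC6 stood at 0.22, PRIM1 at 0.16, CDC6 at 0.11 and POLA1 at -0.20, and none passed the test. Among the members that changed sign were MCM2, MCM3, MCM5 and MCM6, at values from -0.05 to just under 0. Markers of mitosis in the same library had a median deviation of -0.03, smaller than that of the members.

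The effect of VGF differed between the lines for 0 members by the test of the difference (H1299 minus A549), where 0.159% of all features were called in either direction. POLA1 had the smallest p: the difference of its log2 fold changes was -0.33 (SE 0.0768, unadjusted p = 0.00107, adjusted p = 0.159, edgeR). With DESeq2, where 1.05% of all features were called for the difference, POLA1 was called (adjusted p = 0.0311). In A549 it had 50.9, 51.2 and 49.4 CPM in the controls and 55.0, 53.2 and 59.1 CPM with VGF, above all controls, whereas in H1299 it was below all controls. It was the 1 member with that pattern, which 0.571% of features showed.

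At an unadjusted p under 0.05, POLA1, RRM2, TYMS and CHAF1A had smaller values in H1299 (4 members, background 6.82%) and 0 members larger ones. RRM2 in H1299 had 184, 171 and 164 CPM in the controls and 171, 183 and 165 CPM with VGF, fully overlapping, for a difference of -0.28 (SE 0.0992, adjusted p = 0.339). CHAF1A in H1299 had 85.1, 79.5 and 71.3 CPM in the controls and 75.2, 77.4 and 78.5 CPM with VGF (difference -0.22, SE 0.1001, adjusted p = 0.444). MCM6 in H1299 had 160.2, 159.9 and 145 CPM in the controls and 163, 166 and 149 CPM with VGF (difference -0.17, SE 0.0783, adjusted p = 0.454).

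CDC45, the helicase activator, had 28.2, 32.2 and 28.8 CPM in the A549 controls and 36.9, 33.2 and 33.9 CPM with VGF. In H1299 it had 71.3, 70.9 and 64.8 CPM in the controls and 67.6, 78.6 and 67.6 CPM with VGF, and the difference was -0.17 (SE 0.108, adjusted p = 0.582). CCNE2 had 5.73, 6.48 and 6.83 CPM in the A549 controls and 7.69, 9.33 and 6.25 CPM with VGF, and the highest A549 value was in the library with endothelial transcripts, whose part in it was not tested. In H1299 its controls had 12.8, 12.6 and 12.3 CPM and its VGF libraries 12.1, 9.93 and 11.6 CPM, a difference between the effects of -0.46 (SE 0.216, adjusted p = 0.457), which was -0.56 and -0.73 on FPKM. ORC6, PCNA, RFC3 and PRIM1 had all VGF libraries above all controls in both lines (4 members, against 0.658% of features). PCNA and RFC3 also did so on FPKM, where the share of features was not taken. Over the 42 members the median difference was -0.07, against -0.02 over all features, and without H1299 control library 3 it was -0.14.

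More members were called between the lines than with VGF in either line. With empty vector, 32 of 42 members were called between H1299 and A549: 15 were higher in H1299 (38.5% of all features were) and 17 lower (38.6% of all features), with a median log2 fold change of 0.04. These shares are near the background. The comparison uses the same control libraries as those of VGF against empty vector, and it includes the medium. For counts, library sizes were scaled by TMM factors, which were 0.928 to 0.940 in the A549 controls and 1.06 to 1.09 in the H1299 controls. FPKM were fitted as deposited, without these factors, so changes between the scales are not particular to single members. On FPKM the median of all features was 0.12 at a pseudocount of 1 and 0.19 at 0.1, against 0.01 on counts, and that of the members 0.21 and 0.22. On FPKM at either pseudocount 20 members were called higher and 13 lower. Of all 18228 features, 8091 were called higher at a pseudocount of 1 and 8148 at 0.1. In either direction 77.1% and 77.9% of features were called on FPKM. There GINS2, DTL, LIG1 and RRM1 lost their calls, and MCM5, POLA1, POLE, E2F8 and CHAF1B were called higher in H1299 (limma). At a pseudocount of 1 the FPKM values were closer to 0 than those given here for CCNE1 (-0.63), GINS3 (-0.52), MCM10 (-0.43), POLD1 (-0.34), E2F1 (-0.27), ORC1 (-0.23), DTL (-0.21), ORC6 and LIG1 (-0.17 each), MCM3 (-0.16) and RRM1 (-0.10), and further from 0 for RFC3 (0.44) and MCM6 (0.41). GINS4 (0.06), RFC5 (0.21) and RRM2 (0.07), which were negative and not called on counts, were positive there.

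**Figure D5:**
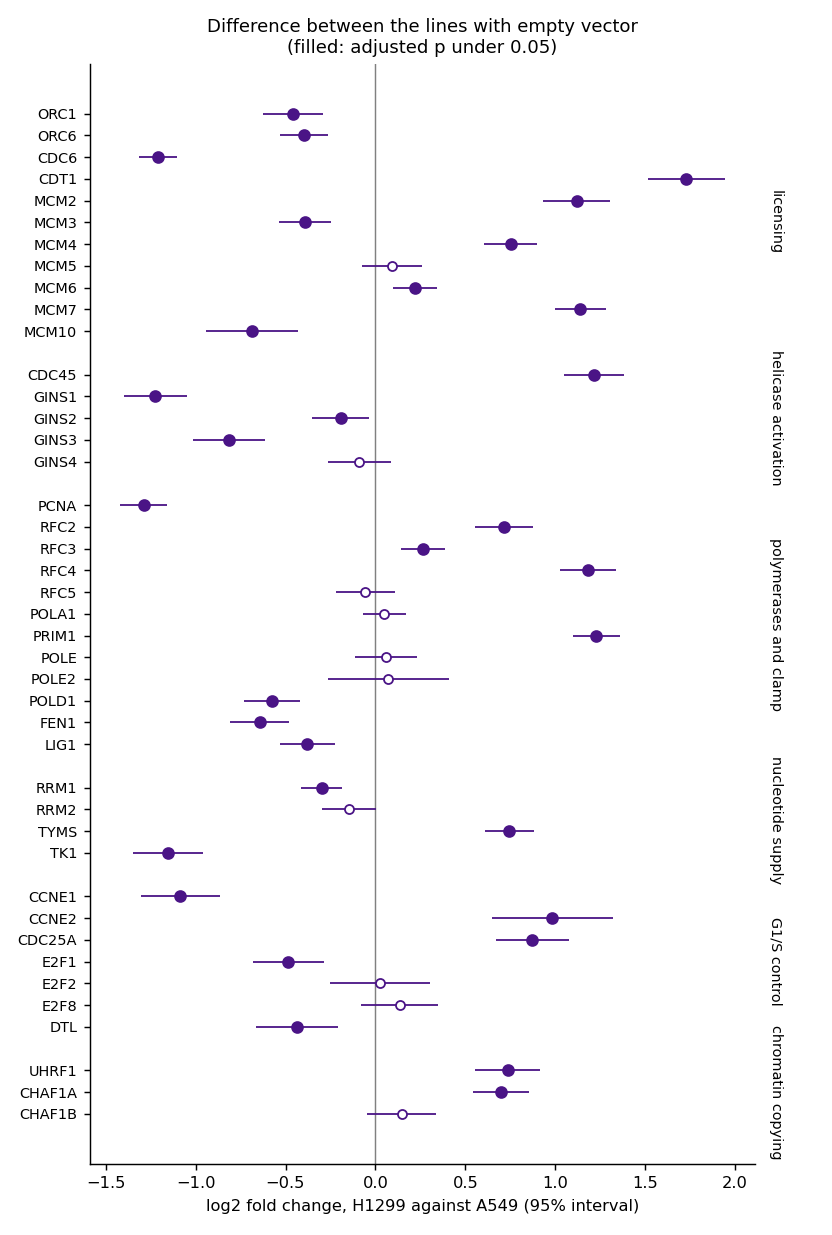
Log2 fold change of H1299 against A549, both with empty vector, with its 95% interval, for the 42 genes by role; filled points have an adjusted p under 0.05. Members of the same role fall on both sides of 0, and the values run from PCNA at -1.29 to CDT1 at 1.73; on FPKM the small negative value of GINS2 turned to 0.01, and those of GINS4, RFC5 and RRM2 turned positive as well.

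The genes placed under licensing parted in both directions. CDT1, the loader that is destroyed once S phase begins, had 28.6, 29.3 and 28.9 CPM in A549 controls and 97.2, 107 and 83.3 CPM in H1299 controls, 3.32-fold higher (log2 fold change 1.73, SE 0.0989, adjusted p = 3.27e-09, edgeR). CDC6, its partner in loading, was 2.31-fold lower in H1299, with 103, 111 and 108 CPM against 48.4, 46.5 and 44.2 CPM (-1.21, SE 0.0482, adjusted p = 9.25e-11). MCM7 had 311, 325 and 309 CPM in A549 and 720.3, 743 and 617 CPM in H1299 (1.14, SE 0.0652, adjusted p = 3.30e-09). No library of either line overlapped with the other line for these 3 genes. MCM2 (1.12), MCM4 (0.75) and MCM6 (0.22) were also higher in H1299, MCM3 (-0.39), MCM10 (-0.68), ORC1 (-0.46) and ORC6 (-0.40) were lower, and MCM5 was at 0.09 (interval -0.08 to 0.26), with a value of 0.29 on FPKM that was called (adjusted p = 0.00349, limma). For MCM2, 23.6% of the exonic bases overlap AC023593.1 or TPRA1, which lie on the other strand.

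In helicase activation CDC45 was 2.32-fold higher in H1299 (1.21, SE 0.0772, adjusted p = 9.53e-09), while the GINS subunits were lower or not called. GINS1 had 58.7, 59.4 and 51.9 CPM in A549 and 24.1, 25.8 and 22.8 CPM in H1299 (-1.22, SE 0.0812, adjusted p = 1.48e-08), GINS3 was at -0.81 and GINS4 at -0.09 (interval -0.26 to 0.09). The call of GINS2 (-0.19, adjusted p = 0.0294) did not hold on FPKM (0.01 at both pseudocounts). It was also lost without A549 control library 2 (0.0967) or 3 (0.0677), A549 VGF library 2 (0.0522), or H1299 control library 2 (0.115) or 3 (0.102).

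At the fork, PRIM1 had 47.2, 46.8 and 48.4 CPM in H1299 controls, 2.34-fold above A549 (1.23, SE 0.0607, adjusted p = 7.58e-10), whereas POLA1 was at 0.05 (interval -0.07 to 0.17). RFC4 had 24.5, 26.9 and 30.0 CPM in A549 and 62.8, 61.8 and 60.0 CPM in H1299 (1.18, SE 0.0709, adjusted p = 5.26e-09), RFC2 was at 0.72, RFC3 at 0.26 and RFC5 at -0.06 (interval -0.22 to 0.11). PCNA showed the largest decrease in H1299 among the members, with 118, 121 and 103 CPM, 2.44-fold below A549 (-1.29, SE 0.0604, adjusted p = 4.47e-10). POLD1 (-0.58), FEN1 (-0.64) and LIG1 (-0.38) were lower too, and POLE and POLE2 had intervals that included 0. On FPKM LIG1 was not called (adjusted p = 0.101, limma), and POLE (0.24, adjusted p = 0.0150) and POLA1 (0.23, adjusted p = 0.00271) were called higher.

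The salvage enzyme TK1 had 176, 189 and 174 CPM in A549 and 85.3, 88.5 and 68.2 CPM in H1299 (-1.16, SE 0.0901, adjusted p = 7.52e-08), opposite to TYMS of the de novo route (0.74, SE 0.0627, adjusted p = 1.63e-07). RRM1 was at -0.30 and RRM2 at -0.15, of which RRM1 was called on counts but not on FPKM (adjusted p = 0.108, limma). The cyclins E were opposite as well: CCNE1 had 16.1, 17.8 and 16.9 CPM in A549 and 8.38, 8.33 and 7.25 CPM in H1299 (-1.09, SE 0.101, adjusted p = 4.53e-07), and CCNE2 was 1.98-fold higher in H1299 (0.98, SE 0.154, adjusted p = 6.47e-05). CCNE2 shares 37.1% of its exonic bases with transcripts on the opposite strand. CDC25A, the phosphatase that frees the cyclin E kinase, was higher (0.87), E2F1 (-0.48) and DTL (-0.44) were lower, and E2F2 and E2F8 were not called. On FPKM DTL was not called (adjusted p = 0.0867, limma), and E2F8 was called higher (0.29, adjusted p = 0.00811). UHRF1 (0.74) and CHAF1A (0.70) were higher, and CHAF1B was at 0.15 (interval -0.05 to 0.34), with a value of 0.30 on FPKM that was called (adjusted p = 0.00561, limma).

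Other genes of the same steps were read from 5 further lists without members, and a list of mitotic genes was set beside them. All these lists were written with earlier results of these data known. In A549 with VGF, 0 of 16 licensing genes, 0 of 25 fork genes, 0 of 14 nucleotide genes, 1 of 30 G1/S control genes and 0 of 14 chromatin genes were called higher, and 0 lower. Of all features, 0.406% were called higher and 0.384% lower. The called gene was CKS2, a small subunit bound to cyclin-dependent kinases, from 49.2 ± 1.70 to 59.8 ± 3.85 CPM (SD, n = 3, adjusted p = 0.0322, edgeR). Of 40 mitotic genes 39 were positive, where 49.3% of all features were, with a median of 0.20. PTTG1 (0.36), TPX2 (0.26) and CCNA2 (0.29) were called higher. A549 control library 1 was the lowest of its group for 31 of the 40, and its part in these values was not tested. TOP2A is in both the fork list and the mitotic list. No gene of these 6 lists (0) was called in H1299, nor between the effects of the 2 lines, where 0.011% and 0.159% of all features were.

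Positive values in A549 were found for 16 of 16 licensing, 22 of 25 fork, 10 of 14 nucleotide, 26 of 30 G1/S control and 13 of 14 chromatin genes outside the members, with medians of 0.12, 0.11, 0.05, 0.07 and 0.11. Of all features 49.3% were positive in A549, with a median of 0. In H1299 the medians of these lists were 0.04, 0.04, 0.07, -0.01 and 0.00, and that of the mitotic genes was 0.01. The median over all features was -0.01 there. For the difference between the lines' effects the mitotic genes had a median of -0.18, with 38 of 40 negative. Over all features the median was -0.02, with 9848 of 18228 negative.

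The background for the next counts is the 38.5% of all features called higher in H1299 and the 38.6% called lower. Between the lines with empty vector, 11 of the 16 licensing genes outside the members were called higher in H1299 and 1 lower, which was MCM8 (-0.33). Of the fork genes 16 of 25 were higher, among them RFC1, the large clamp loader subunit (1.59), and 7 lower, among them POLD4, the smallest subunit of polymerase delta (-1.75). Nucleotide supply had 2 of 14 higher, among them DUT, which removes dUTP (0.87), and 7 lower. G1/S control had 20 of 30 higher, among them CDK6 (1.39) and E2F5 (2.02), and 7 lower, among them the kinase inhibitor CDKN1A (-1.48) and CCND3 (-1.59). Chromatin copying had 9 of 14 higher, among them DNMT1, the maintenance methyltransferase that UHRF1 guides (1.05), and 3 lower. Of the mitotic genes 30 of 40 were higher and 7 lower.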

How the data were processed

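RNA was measured in 12 libraries of 2 cell lines, 3 per group, and grouped by the labels. The authors deposited a table of read counts per gene and a table of FPKM values (counts per gene length and library size) for the same libraries. Per the submitters' processing notes, the build was GRCh38 and DESeq2 was among the tools. For the aligner, the read counter and the strand setting, the answer is not given in the sources used here. In both tables, 18 lines named no feature and were left out.

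Counts were tested with edgeR 4.0.16 (R 4.3.3; TMM factors, filterByExpr, quasi-likelihood fit of 4 group means, 8 residual degrees of freedom). Benjamini-Hochberg adjustment ran over 18228 features, with calls at an adjusted p under 0.05. All 42 members passed the filter. CPM are counts scaled to the TMM-adjusted library size, means are given with SD, and intervals are 95%. Levels between genes were compared as deposited FPKM. Summed over features, counts differed between replicates by more than sampling noise (chi-square per degree of freedom 7.60 to 20.6). This by itself does not show that libraries are independent, and it does not hold for each gene singly. Each library was treated as a replicate on the submitters' description. The p-values set differences of group means against the spread between these libraries. Alternatives were RLE size factors, no filter, DESeq2 1.42.0, voom (limma 3.58.1), log2(FPKM + 1 or + 0.1) with limma, the replicate block, each line alone, and leaving out each library. The FPKM fits used the deposited values without TMM factors. The overlap of libraries on FPKM was added after seeing the data, for the members only.

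The members and all gene lists were chosen with earlier results of these data known. All members are named; values per library are given for members called in a comparison of VGF with empty vector or for the difference between lines, for the member with the smallest p per role and comparison, and for the 5 largest called line differences in each direction. From each list of non-members, genes are named only among the 3 called ones with the smallest p per direction. Genome positions are GRCh38 (GENCODE models), and promoter sequences are from RefSeq (GRCh38.p14). Summed markers of leukocytes were 15.2 to 18.6 CPM in A549 and 0.714 to 1.18 in H1299, and those of fibroblasts 20.9 to 26.3 and 1.62 to 2.43. Epithelial markers summed to 5315 to 7077 CPM in A549. Libraries held 31378171 counts or more, but counts of single members were far lower. CCNE2, for example, had 197, 217 and 227 counts in the A549 controls. How much of the spread of a gene between replicates was counting error was not tested. Some genes of the marker and non-member lists are not reported here.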

Additional observations from a re-analysis of the deposited data

Results flagged for a closer look

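POLA1 was set apart because its libraries moved in opposite directions in the lines: with VGF every A549 library was above every A549 control and every H1299 library below every H1299 control. The difference between the effects was -0.325 on the log2 scale (H1299 minus A549). It was tested, with an adjusted p of 0.159 from edgeR's quasi-likelihood test, and did not pass. Over the alternatives that adjusted p ran from 0.0311 (DESeq2) to 0.341, and the difference from -0.35 to -0.28.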

How the results depend on the processing

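In A549 the count of members called (1) became 0 without the filter, on FPKM at either pseudocount, with the replicate block and with the line fitted alone, and 4 with DESeq2 (MCM6, PRIM1, RRM2 and TYMS). With limma voom the 1 called member was RRM2. Of all features in A549, DESeq2 called 2.67% and voom 1.83%, against 0.79% with edgeR. Leaving out each library gave 0 to 1 called members. For the difference between the lines' effects DESeq2 called 1 member, POLA1, and edgeR 0. Of all features they called 1.05% and 0.159%. Between lines the median of the members was 0.208 and 0.225 on FPKM (pseudocounts 1 and 0.1), against 0.04 on counts, and GINS2 reversed to 0.00526 and 0.00549. Leaving out each library gave medians of 0.118 to 0.182 in A549, 0.00137 to 0.0903 in H1299, -0.137 to -0.0357 for the difference and -0.0132 to 0.0826 between lines. It gave 31 to 33 members called between lines, and 0 in H1299 and for the difference. VGF itself stayed at 8.92 to 9.14 in A549 and 3.42 to 3.59 in H1299. Replicates with the same number did not deviate together (correlations -0.08 to 0.10 over 11733 features), so the numbers do not pair the libraries. With the replicate block 43 features were called in A549, against 144 without it, the median of the members was 0.15, and 32 members were called between lines. Between lines on FPKM, which were fitted without TMM factors, 4 members lost their call and 5 gained one. With 3 libraries a group, the intervals give the range of change that was not resolved.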
